A study of Mus musculus with 16 samples.

Results

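Fgf21 and Gdf15, the genes of the stress hormones FGF21 and GDF15, were followed with the genes of the FGF21 receptor system, Klb, Fgfr1, Fgfr2, Fgfr3 and Fgfr4, in p53−/−; Myc hepatoblasts exposed to sorafenib. These are 7 of the 40840 genes counted. Fgf21 and Gdf15 were chosen by their response to sorafenib in these same libraries, so their values are given as a description without a test, whereas Klb and the 4 FGF receptors were taken for their known role. All 7 genes reached the minimum of 10 counts in total over all libraries, as did 20444 genes of the table.

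FGF21 is a hormone that the liver and other tissues release under nutrient and mitochondrial stress. It signals through an FGF receptor tyrosine kinase, mainly FGFR1, held in a complex with the co-receptor beta-Klotho, the product of Klb. GDF15 is a distant member of the TGF-beta superfamily released by stressed cells, and it acts on GFRAL, a receptor of the hindbrain that signals through the kinase RET. Both hormone genes are known targets of the integrated stress response, in which ATF4 and its partners bind C/EBP-ATF response elements.

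Messenger RNA was sequenced from a mouse cell line of liver progenitors that lack p53 and overexpress Myc, used in culture as a model of hepatocellular carcinoma. The 4 groups were DMSO for 48 hours, sorafenib (8.5 µM) for 48 hours, DMSO for 7 days and sorafenib (8.5 µM) for 7 days. Sorafenib is a multikinase inhibitor, DMSO its vehicle, and all groups shared the p53−/−; Myc background. Each group had 4 libraries of the 1 line, and since nothing says that these came from separate cultures, p-values measure the spread between libraries, which may be technical. Total counts ran from 16586254 to 30828427 with a median of 26360677.

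The labels were set against marker genes. Trp53 was counted in every group, with 3690 ± 322 normalized counts in DMSO and 1843 ± 80.3 in sorafenib at 48 hours, and 2128 ± 131 and 2570.0 ± 144 at 7 days (SD, n = 4), and counts per gene do not show which exons are missing. Of 8 markers of hepatoblasts and hepatocytes, Dlk1, a marker of hepatoblasts, was the most abundant, with 32200 ± 841 normalized counts in DMSO at 48 hours. Hnf4a had 0 counts in the 16 libraries, and Alb had 0 at 48 hours and 1 and 2 counts in DMSO and sorafenib at 7 days. Afp had 1 and 4 counts in DMSO and sorafenib at 48 hours, and 40 and 16 at 7 days. Ttr had 12 counts in DMSO at 7 days and 0 in the other groups. These members of the list were thus at or near 0 or low, whereas Krt8 and Krt18 had 114 ± 7.23 and 286 ± 14.6 normalized counts in DMSO at 48 hours. Counts were present for 5 of the 8 in both groups at 48 hours, 7 in DMSO at 7 days and 6 in sorafenib at 7 days. The summed level of this list was 32090 to 33560 in DMSO and 10680 to 12560 in sorafenib libraries at 48 hours, and 16970 to 18820 against 5035 to 5194 at 7 days. Dlk1 made up most of this sum, and Foxa2 of the same list went the other way, from 211 ± 22.2 to 722 ± 78.4 at 48 hours and from 480 ± 30.7 to 862 ± 11.0 at 7 days. Of 5 markers of stellate cells and fibroblasts, 4 had counts and Lrat had 0. Their sum was 46650 to 49750 in DMSO and 133200 to 154500 in sorafenib libraries at 48 hours, and 66080 to 67900 against 114400 to 119400 at 7 days. Col1a1 led that list in each group but sorafenib at 7 days, where Acta2 led it. The other counted members were lower with sorafenib, Pdgfrb with 1670 ± 54.2 against 977 ± 196 at 48 hours and 718 ± 50.3 against 470 ± 12.8 at 7 days, and Des with 89.5 ± 14.8 against 72.6 ± 4.19 and 42.2 ± 7.80 against 18.8 ± 6.76. These marker sums differed between treatments in the same comparisons as Fgf21 and Gdf15, and their part in the results was not tested. In bulk RNA, fewer cells of a kind and less RNA per cell cannot be told apart.

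Markers of leukocytes and endothelial cells had few counts, and those of bile duct cells more. Of 5 leukocyte markers, Cd68 was the most abundant, the list summed to 58.06 to 76.24 normalized counts at 48 hours and 58.7 to 88.11 at 7 days, and Adgre1 and Cd3e had 0 counts throughout. Of 4 bile duct markers, all had counts, with Krt19 in the lead except in DMSO at 7 days, where Krt7 led. Their sum was 4603 to 4906 in DMSO and 2658 to 2760 in sorafenib libraries at 48 hours, and 5288 to 5666 against 1957 to 2103 at 7 days. Sox9 of this list went the other way, from 213 ± 26.6 to 664 ± 55.4 at 48 hours and from 350.0 ± 18.4 to 904 ± 47.4 at 7 days. Of 4 endothelial markers, Kdr was the most abundant and the list summed to 33.52 to 77.59 in DMSO and 119 to 229.8 in sorafenib libraries. Kdr made up most of this sum. Pecam1 of the same list had 20 counts in DMSO and 6 in sorafenib at 48 hours, and 10 and 16 at 7 days. Stab2 had 11 counts in DMSO and 22 in sorafenib at 48 hours, and 26 and 53 at 7 days. Cdh5, which defines endothelial cells, had 0 counts in 3 of 4 groups and 3 counts in DMSO at 7 days.

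Some libraries stood apart from their replicates. In sorafenib at 48 hours replicate 2, counts lay below those of the other replicates across chromosomes 15 to 19 and X, with median log2 deviations of -0.64 to -0.62, and slightly above them on chromosomes 1 to 13, at 0.08 to 0.10. On chromosome 14 the median deviation was -0.56 from 100 to 120 Mb, lower still beyond, and 0.06 to 0.11 before that stretch. Chromosomes 15 to 19 and X held 14.1% of its counts, against 20.5% to 21.3% in the other 15 libraries. The 7 genes lie on chromosomes 5, 7, 8 and 13, outside the lowered stretch. The log2 fold changes of the 7 genes at 48 hours and the counts of called genes are given with and without this library, the one with lowered chromosomes. Among the markers, Acta2 lies on chromosome 19, and the sum of the stellate list was 133200 in that library against 150200 to 154500 in the other replicates.

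Vehicle libraries differed in a few abundant RNAs. Chi-square per gene was 41.4 to 55.0 between replicate 4 of DMSO at 7 days and the other replicates, which differed by 1.78 to 2.79. In DMSO at 48 hours it was 14.4 to 32.7 between either of replicates 1 and 4 and either of replicates 2 and 3. In the pairs with that 7-day replicate, 10 genes held 92.7% to 95.1% of the chi-square, and without them 2.71 to 3.02 per gene remained. The 10 genes of the widest pair were led by LOC118568312, with 419700 normalized counts in replicate 4 of DMSO at 7 days against 40300 to 56860 in the other replicates, AY036118, with 367900 against 32910 to 45280, and Lars2, with 48760 against 5719 to 7187. They also included the mitochondrial ribosomal RNA genes mt-Rnr1 and mt-Rnr2 and the noncoding RNA genes Rmrp, Rn7sk and Rpph1. Together the 10 held 3.48% of counts in replicate 4 of DMSO at 7 days against 0.386% to 0.517% in the other replicates, and 3.32% and 2.38% in replicates 2 and 3 of DMSO at 48 hours against 0.747% and 0.989% in replicates 1 and 4.

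Without replicate 4 of DMSO at 7 days, 11053 genes were called at 7 days in place of 11613. The 7-day log2 fold changes were then 1.08 for Fgf21, 3.24 for Gdf15, 0.79 for Fgfr1, -1.05 for Fgfr2, -0.47 for Fgfr3 and -1.02 for Fgfr4. Without replicate 2 or 3 of DMSO at 48 hours, 10609 and 10726 genes were called at 48 hours in place of 11158, and the 48-hour log2 fold change was 4.50 and 4.43 for Fgf21, 4.02 and 4.43 for Gdf15, 0.50 and 0.46 for Fgfr1 and 0.70 and 0.60 for Fgfr3. The 48-hour call of Fgfr2 was lost without replicate 2 (FDR = 0.111, edgeR) and that of Fgfr4 without replicate 3 (FDR = 0.106, edgeR).

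Fgf21 went from at most 14 counts to at least 109 counts per library at 48 hours. The gene lies on the minus strand at chr7:45263301-45266963 (GRCm39, GENCODE M39). In DMSO at 48 hours, replicates 1 to 4 held 7, 14, 12 and 4 counts of Fgf21, and with sorafenib they held 109, 120, 194 and 134. At 7 days the DMSO libraries held 11, 14, 20 and 6 counts and the sorafenib libraries 18, 40, 36 and 32. Scaled to a common library size as normalized counts, the 48-hour level was 8.67 ± 4.30 in DMSO and 167.8 ± 17.7 in sorafenib (SD, n = 4). The 7-day level was 11.7 ± 4.79 in DMSO and 28.9 ± 5.80 in sorafenib. The sorafenib libraries lay above the DMSO libraries at both times without overlap, and those of 48 hours lay above those of 7 days.

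The fitted log2 fold change of Fgf21 was 4.27 (SE 0.23) at 48 hours and 1.31 (SE 0.28) at 7 days. As a ratio of summed counts the 48-hour difference was 19.6-fold, with a 95% counting interval of 14.1 to 28.2, and the 7-day difference 2.50-fold, with an interval of 1.79 to 3.53. Such intervals cover counting error only. Within sorafenib, the 7-day level was 0.175 times that of 48 hours (interval 0.143 to 0.212). The DMSO groups overlapped, with a ratio of 1.37 (interval 0.882 to 2.16). Without replicate 2 of sorafenib at 48 hours the log2 fold change was 4.24.

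Part of Fgf21 shares its bases with a neighbour. Of its 1362 exon bases, 245 overlap exons of Fut1, a fucosyltransferase gene on the opposite strand, and because the strand setting of the counting was not stated, reads from the shared stretch cannot be assigned to either gene with certainty. Fut1 held 30 counts over the 4 DMSO libraries and 132 over the sorafenib libraries at 48 hours, and 34 and 83 at 7 days. Its log2 fold change was 2.52 at 48 hours (FDR = 4.79e-07, edgeR) and 1.29 at 7 days (FDR = 0.00187, edgeR), where the libraries overlapped. How much of either value comes from shared reads was not tested.

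**Figure D1:**
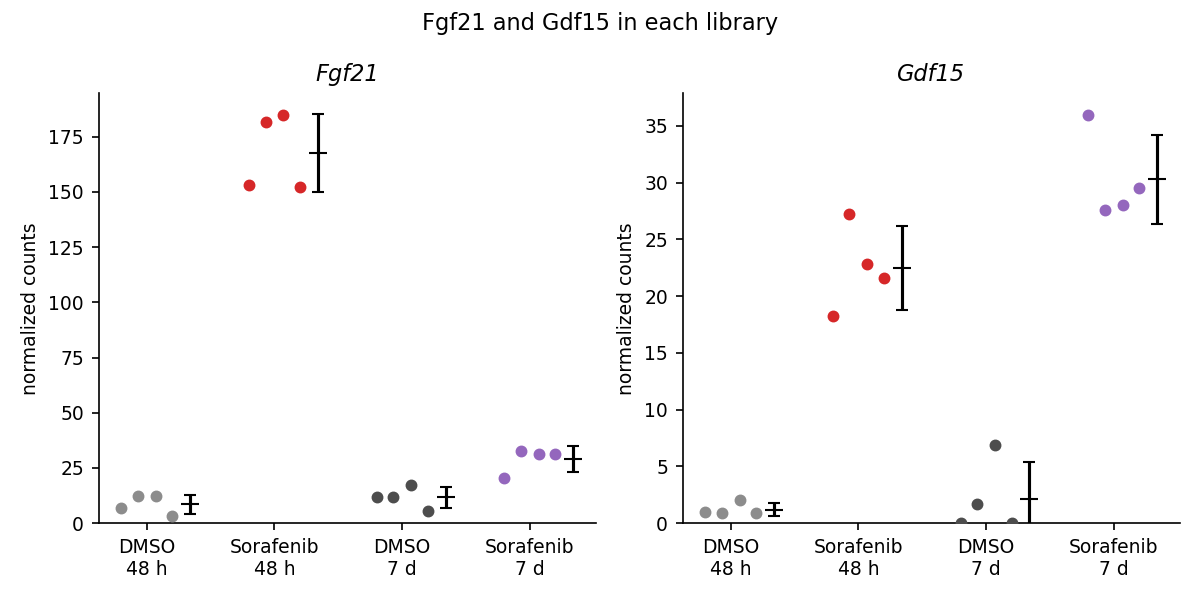
Normalized counts of Fgf21 and Gdf15 (vertical axes, from 0) in each of the 16 libraries, by group; points are replicates 1 to 4 from left to right and bars the mean ± SD (n = 4). Fgf21 stands highest in sorafenib at 48 hours (152.2 to 184.6), whereas Gdf15 stands above DMSO at both times, from 18.2 to 27.2 at 48 hours and 27.6 to 36.0 at 7 days.

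The 250 bases before the RefSeq start of Fgf21 are shown because the genes known to act through C/EBP-ATF response elements are described further on. They read 5′ to 3′ on the gene's strand at chr7:45264915-45265164 (GRCm39, by exact match of the RefSeq promoter listed for GRCm38.p6), in an intron of 2 longer transcripts of Fgf21 and in no annotated exon. Capitals mark 2 motif matches.

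Fgf21: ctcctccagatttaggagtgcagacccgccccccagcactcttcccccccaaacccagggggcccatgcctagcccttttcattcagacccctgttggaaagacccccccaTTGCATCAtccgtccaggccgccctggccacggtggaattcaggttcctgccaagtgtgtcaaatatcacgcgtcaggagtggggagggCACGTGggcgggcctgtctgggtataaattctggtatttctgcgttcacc

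The first capitals, at bases -139 to -132 from the start, are TTGCATCA, the reverse complement of TGATGNAA, the core of the C/EBP-ATF response element. The others, at -50 to -45, are CACGTG, an E-box. On both strands of windows of 300 bases, 250 before and 50 after the start, TGATGNAA occurred in 3.97% of 32851 promoters, CACGTG in 7.15%, TGACGTCA (the cAMP response element) in 1.79% and TGANTCA (the AP-1 motif) in 7.81%. Promoters were listed for 6 of the 7 genes. Of the 2 windows listed for Gdf15, the upstream one held none of the 4 motifs and the downstream one held CACGTG at -83 to -78. Fgfr2 had CACGTG at 28 to 33 after its start, and the windows of Klb, Fgfr3 and Fgfr4 held no match. A match shows the presence of these letters and no more.

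Gdf15 was near 0 in DMSO and low but counted in each sorafenib library. It lies on the minus strand at chr8:71082038-71091537. At 48 hours the DMSO libraries held 1, 1, 2 and 1 counts of Gdf15 and the sorafenib libraries 13, 18, 24 and 19. At 7 days DMSO held 0, 2, 8 and 0 counts and sorafenib 32, 34, 32 and 30. The sorafenib libraries lay above the DMSO libraries at both times, and 8 of the 10 counts in DMSO at 7 days came from replicate 3. Normalized counts were 1.19 ± 0.57 in DMSO and 22.5 ± 3.71 in sorafenib at 48 hours, and 2.16 ± 3.27 and 30.3 ± 3.90 at 7 days (SD, n = 4). At this depth a floor of 3 counts in a library stood for 2.44 to 4.54 normalized counts, so most DMSO values lay under it.

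The fitted log2 fold change of Gdf15 was 4.13 (SE 0.54) at 48 hours and 3.64 (SE 0.43) at 7 days. Its ratio of summed counts was 19.3-fold at 48 hours, with a counting interval of 7.91 to 61.2, and 12.9-fold at 7 days, with an interval of 6.82 to 27.6. Leaving out replicate 3 of DMSO at 7 days moved the 7-day log2 fold change to 5.32. Without replicate 2 of sorafenib at 48 hours, the 48-hour value was 4.05. From 48 hours to 7 days in sorafenib the ratio was 1.34 (interval 0.996 to 1.80), where that of Fgf21 was 0.175, and the libraries of Gdf15 at 7 days lay just above those of 48 hours, with 27.61 as the lowest against 27.22 as the highest normalized count. Exons of Gm34154, a noncoding gene on the opposite strand, cover 391 of the 2263 exon bases of Gdf15, and Gm34154 had 1 count in all 16 libraries.

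The receptor genes showed separate patterns. At 48 hours 54.6% of the 20444 genes passed an FDR of 0.05 for drug against vehicle, 26.9% higher and 27.7% lower. That balance moved with the processing, to 4882 higher and 6481 lower with library totals as the scale and 5731 and 5015 with a filter of 1 or more counts in any library. At 7 days 56.8% differed, 28.9% higher and 27.9% lower, and between the DMSO groups of both times 49.4% differed, 23.9% higher at 7 days and 25.5% lower. The treatment effect differed between times, as an interaction, for 36.8% of genes, with 3162 higher and 4353 lower, or 4125 higher and 3292 lower with library totals as the scale. Without replicate 2 of sorafenib at 48 hours, 11608 genes were called at 48 hours in place of 11158, 12590 at 7 days in place of 11613, 11242 between the DMSO groups in place of 10100, and 8761 in the interaction in place of 7515. Against this background, 4 of the 5 receptor genes were called at each time and 3 in the interaction, which is not a result about the receptors as a group. Libraries of the drug and vehicle did not overlap for 48% of all tested genes at 48 hours and 56.8% at 7 days, and for 3 and 4 of the 5 receptor genes.

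Fgfr1, the main partner of beta-Klotho in FGF21 signalling, was higher with sorafenib at both times. It lies at chr8:26003670-26066824 on the plus strand. Its normalized counts at 48 hours were 1931, 1859, 1811 and 1887 in DMSO and 2698, 2719, 2676 and 2541 in sorafenib. At 7 days they were 1377, 1419, 1373 and 1329 in DMSO and 2298, 2414, 2394 and 2480 in sorafenib. No library of either drug group fell within the range of its vehicle. The log2 fold change was 0.51 (SE 0.04) at 48 hours (FDR = 1.74e-10, edgeR) and 0.80 (SE 0.04) at 7 days (FDR = 1.27e-13, edgeR), and the 7-day effect was larger by 0.30 (FDR = 8.7e-05, edgeR interaction). Without the library with lowered chromosomes the 48-hour value was 0.49 and the interaction 0.31. In DMSO alone Fgfr1 fell by 0.45 on the log2 scale from 48 hours to 7 days (FDR = 2.67e-09, edgeR). By exact permutation over the libraries, two-sided, each of these pairs of groups gave p = 0.0286, the smallest p that 4 libraries a group can give.

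Fgfr2, which encodes a receptor that binds several paracrine FGFs, changed mainly at 7 days. Its annotated span, chr7:129763471-132725079 on the minus strand, includes 314 exon bases shared with Ctbp2 on the same strand, of 11336. At 48 hours Fgfr2 had 1061, 1042, 1151 and 1130 normalized counts in DMSO and 1138, 1229, 1179 and 1174 in sorafenib, and these ranges overlapped. At 7 days it had 2054, 2020, 2111 and 2153 in DMSO and 1020, 985.9, 971.7 and 994.5 in sorafenib, well apart. In DMSO the level rose between the times, by 0.93 on the log2 scale (FDR = 1.91e-13, edgeR), and in sorafenib it fell by 0.25 (FDR = 5.27e-05, edgeR).

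With sorafenib, the log2 fold change of Fgfr2 was -1.07 (SE 0.04) at 7 days (FDR = 5.85e-15, edgeR), seen in 4 of 4 libraries (exact permutation p = 0.0286). At 48 hours it was 0.11 (SE 0.04), with FDR = 0.0319 in edgeR and an exact permutation p of 0.0571. The 48-hour difference was not called without replicate 1, 2 or 4 of DMSO or any 1 of the 4 replicates of sorafenib at 48 hours (log2 fold change 0.090 and FDR = 0.0542 without sorafenib replicate 2, and FDR up to 0.224). Over the other settings its FDR ran from 0.0049 to 0.536 (edgeR and DESeq2). The treatment effects differed between times by -1.18 (FDR = 2.36e-12, edgeR interaction), or -1.16 without the library with lowered chromosomes. Ctbp2, which shares exon bases with Fgfr2, had log2 fold changes of -0.06 (FDR = 0.153) and -0.30 (FDR = 3.9e-07) at 48 hours and 7 days in edgeR.

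Fgfr3 turned direction between the times. It encodes a receptor known for restraining bone growth and lies at chr5:33879018-33894412 on the plus strand. The 48-hour normalized counts were 145.6, 141.4, 118.4 and 171.1 in DMSO and 239.9, 235.9, 234.1 and 240.8 in sorafenib. The 7-day values were 266.0, 258.7, 297.8 and 282.9 in DMSO and 184.5, 186.0, 217.8 and 200.7 in sorafenib. Every sorafenib library was above the vehicle at 48 hours and below it at 7 days. The log2 fold change was 0.71 (SE 0.09, FDR = 1.39e-06, edgeR) at 48 hours and -0.49 (SE 0.09, FDR = 5.27e-05, edgeR) at 7 days, and their difference was -1.20 (FDR = 2.11e-07, edgeR interaction). Without the library with lowered chromosomes the 48-hour value was 0.72 and the difference -1.20. In DMSO the level rose by 0.93 on the log2 scale with time (FDR = 2.46e-08, edgeR).

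Fgfr4, the main FGF receptor of hepatocytes, and Klb were close to the limit of counting. Fgfr4 lies at chr13:55300352-55316572 on the plus strand. It held 8, 6, 10 and 10 counts in DMSO and 3, 3, 4 and 3 in sorafenib at 48 hours, then 9, 8, 8 and 7 in DMSO and 4, 6, 2 and 4 in sorafenib at 7 days. The drug libraries were lower at both times without overlap. Ratios of summed counts were 0.499 (interval 0.242 to 0.970) and 0.506 (interval 0.259 to 0.949). The log2 fold changes of -0.98 (FDR = 0.0477, edgeR) and -0.96 (FDR = 0.0395, edgeR) passed the threshold narrowly, with exact permutation p = 0.0286 at each time. Over the settings that left out no single library, FDR ran from 0.0314 to 0.087 and from 0.0386 to 0.0788, the highest in DESeq2. The 48-hour call was lost without replicate 1, 3 or 4 of DMSO or any 1 of the 4 replicates of sorafenib at 48 hours (log2 fold change -1.04 and FDR = 0.0811 without sorafenib replicate 2, and FDR up to 0.106). The 7-day call was lost without replicate 1 of DMSO or 3 or 4 of sorafenib at 7 days, or replicate 2 of sorafenib at 48 hours (0.0606 without the last, and up to 0.163).

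Klb, without which FGF21 does not bind its receptors with high affinity, lies at chr5:65505657-65541827 on the plus strand. It held 5, 8, 2 and 6 counts in DMSO and 4, 10, 5 and 1 in sorafenib at 48 hours, and 8, 5, 9 and 4 in DMSO and 6, 3, 9 and 7 in sorafenib at 7 days. All groups of Klb overlapped. The log2 fold change was 0.34 (95% confidence interval -0.85 to 1.53, FDR = 0.647, edgeR) at 48 hours and -0.04 (interval -1.13 to 1.06, FDR = 0.968, edgeR) at 7 days. A difference was not detectable at this depth. Without replicate 2, which held 10 of the 20 counts, the 48-hour value was -0.35 (FDR = 0.659, edgeR). Exons of Rpl9, a ribosomal protein gene on the opposite strand, cover 662 of the 5042 exon bases of Klb. Rpl9 had 10790 ± 381 normalized counts in DMSO at 48 hours, and the part of shared reads in the counts of Klb was not tested.

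**Figure D2:**
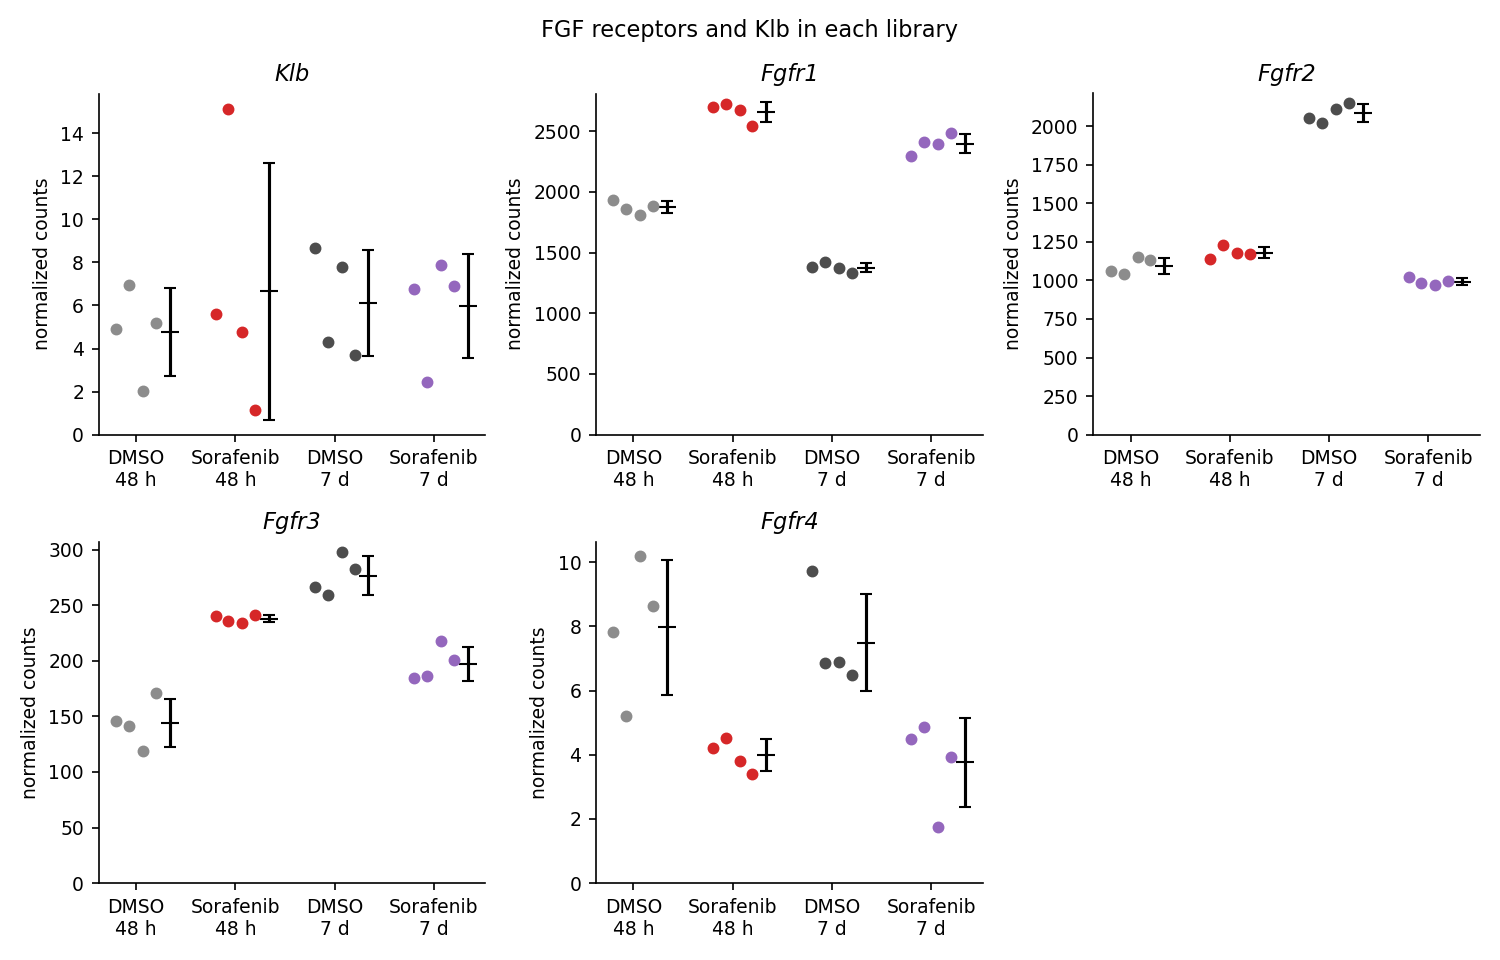
Normalized counts of Klb, Fgfr1, Fgfr2, Fgfr3 and Fgfr4 (vertical axes, from 0) in each library, by group; points are replicates 1 to 4 from left to right and bars the mean ± SD (n = 4). Fgfr1 is higher with sorafenib at both times, Fgfr2 is lower at 7 days (971.7 to 1020 against 2020 to 2153), and Fgfr3 is higher at 48 hours and lower at 7 days.

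Levels of different genes were set side by side as CPM (counts scaled to a common library total) per kilobase of exon, counting every annotated exon base of a gene. In DMSO at 48 hours Fgfr1 (5.83 ± 0.156) stood above Fgfr2 (3.85 ± 0.185), and Fgfr3 followed at 0.650 ± 0.0973. Fgf21 (0.253 ± 0.126) came next, and Fgfr4 (0.0717 ± 0.0188), Klb (0.0376 ± 0.0160) and Gdf15 (0.0209 ± 0.0101) ended the order, each overlapping the next. With sorafenib at 48 hours Fgf21 reached 4.90 ± 0.516 per kilobase, between Fgfr1 (8.28 ± 0.251) and Fgfr2 (4.14 ± 0.132) and apart from both. The order of Fgf21 and Fgfr2 turned with the length used: per kilobase of the longest transcript Fgf21 (4.53 to 5.50) lay below Fgfr2 (8.02 to 8.67). Without the library with lowered chromosomes the levels per kilobase of exon were 4.77 ± 0.541 for Fgf21, 8.22 ± 0.266 for Fgfr1 and 4.08 ± 0.0792 for Fgfr2 (n = 3), and the ratio of Fgfr1 to Fgfr2 was 2.01 ± 0.0922. Over all 4 libraries Fgfr3 (1.07 ± 0.0144) and Gdf15 (0.395 ± 0.0653) followed, and Klb (0.0525 ± 0.0471) and Fgfr4 (0.0359 ± 0.00441) overlapped at the end. Without that library Gdf15 was at 0.367 ± 0.0418, and Klb (0.0303 ± 0.0188) came after Fgfr4 (0.0342 ± 0.00361).

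In DMSO at 7 days the order of the leading receptors was the opposite, with Fgfr2 at 7.32 ± 0.207 and Fgfr1 at 4.28 ± 0.114 per kilobase, above Fgfr3 (1.25 ± 0.0791) and Fgf21 (0.341 ± 0.140). Fgfr4 (0.0674 ± 0.0135), Klb (0.0482 ± 0.0195) and Gdf15 (0.0379 ± 0.0575) overlapped in turn. In sorafenib at 7 days Fgfr1 led again with 7.46 ± 0.234 and Fgfr2 had 3.49 ± 0.0716. The ratio of Fgfr1 to Fgfr2 per kilobase was 1.52 ± 0.0996, 2.00 ± 0.0793, 0.586 ± 0.0316 and 2.14 ± 0.0973 (SD, n = 4) in DMSO and sorafenib at 48 hours and in DMSO and sorafenib at 7 days. In sorafenib at 7 days Fgfr3 (0.889 ± 0.070) and Fgf21 (0.845 ± 0.170) did not differ beyond their spread, though per kilobase of the longest transcript Fgfr3 (1.60 ± 0.126) lay above Fgf21 (0.861 ± 0.173) without overlap. Fgf21 also overlapped Gdf15 (0.532 ± 0.0686). Klb (0.0472 ± 0.0191) and Fgfr4 (0.0339 ± 0.0126) were lowest and overlapped.

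**Figure D3:**
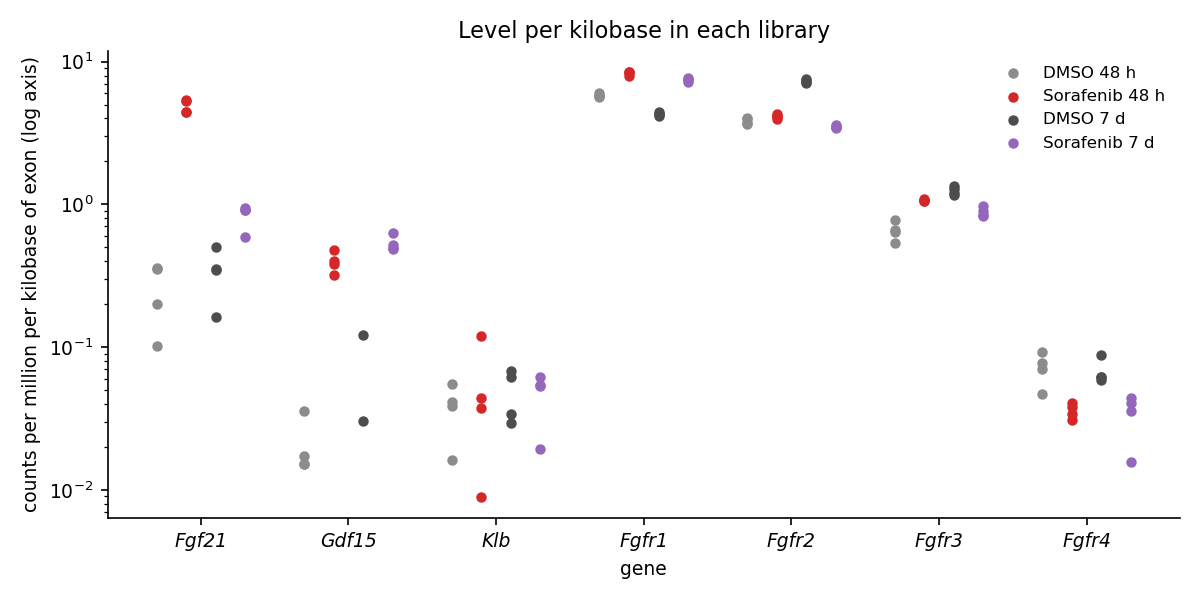
Level of the 7 genes in each library as CPM per kilobase of exon, on a log axis, by group; libraries of Gdf15 with 0 counts (2 in DMSO at 7 days) cannot be drawn. Fgfr1 and Fgfr2 lie highest in 3 of 4 groups, Fgf21 lies between them in sorafenib at 48 hours (below both per kilobase of the longest transcript), and Klb and Fgfr4 lie at or under 0.119.

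Other genes of both hormone systems were taken in 10 lists with 139 genes, of which 123 were tested. Over all lists 57 members were higher and 35 lower with sorafenib at 48 hours, and 63 were higher and 34 lower at 7 days. Over all tested genes the shares were 26.9% higher and 27.7% lower at 48 hours and 28.9% and 27.9% at 7 days. In the interaction 27 members were higher and 54 lower at 7 days, where 36.8% of all tested genes were called, and the balance between higher and lower over all genes turned with library totals as the scale. Without replicate 2 of sorafenib at 48 hours, 59 members were higher and 35 lower at 48 hours, and 65 and 37 at 7 days. In the interaction 30 were then higher and 61 lower. The median log2 fold change of all tested genes was -0.05 at 48 hours and 0.02 at 7 days.

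Regulators known to control Fgf21 or Gdf15 numbered 16, all tested. At 48 hours 6 were higher and 7 lower, with a median log2 fold change of 0.01, and at 7 days 7 were higher and 4 lower (8 and 4 without the library with lowered chromosomes), with a median of 0.21. These counts include Trp53, reported as knocked out in this line, among the lower genes at 48 hours and the higher ones at 7 days. Ddit3, which encodes the stress factor CHOP, went from 276 ± 16.2 to 3271 ± 195 normalized counts at 48 hours and from 393 ± 11.3 to 2941 ± 57.6 at 7 days. Atf3 rose 11.0-fold at 48 hours and 3.75-fold at 7 days, as ratios of summed counts, and Atf5 5.52-fold and 2.95-fold. Atf4 rose as well, with log2 fold changes of 1.60 (FDR = 2e-12, edgeR; 1.72 without that library) and 0.97 (FDR = 3.41e-09, edgeR). The interaction was called for Atf4, Ddit3, Atf5 and Atf3, each with the smaller effect at 7 days. In sorafenib the mean level fell between the times for Ddit3 alone among these. Atf3 went from 1119 ± 98.8 to 1525 ± 47.3 and Atf5 from 5049 ± 292 to 5641 ± 158. Atf4, on a lowered chromosome, went from 15180 ± 2670 to 17180 ± 324. In DMSO all 4 rose, Atf3 from 100.9 ± 8.65 to 404.7 ± 43.7, Atf5 from 909.4 ± 22.7 to 1903 ± 41.9 and Atf4 from 5017 ± 170 to 8774 ± 243. Nr1h4, the gene of the bile acid receptor FXR, rose 5.03-fold and 1.60-fold, and its DMSO level went from 36.8 ± 6.74 to 131.5 ± 9.61 between the times. Rxra, Ppargc1a and Tfeb were lower at both times (Tfeb by -0.46 at 48 hours, or -0.38 without that library), and no difference was called at either time for Ppara or Creb3l3.

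Other targets of ATF4 moved mostly upward. Of 14 targets, 13 were higher and Ddit4 was lower at 48 hours, with a median log2 fold change of 2.09, and at 7 days 14 were higher, with a median of 2.26. Trib3, a pseudokinase gene, went from 293.8 ± 14.6 to 5666 ± 319 normalized counts at 48 hours and from 361.1 ± 23.7 to 4844 ± 129 at 7 days. Cth, an enzyme of transsulfuration, rose 15.3-fold and 10.7-fold, and Slc7a11, the cystine transporter, 17.7-fold and 4.92-fold. Between the times Slc7a11 went from 88.6 ± 6.97 to 426 ± 32.6 normalized counts in DMSO and from 1574 ± 93.9 to 2106 ± 57.9 in sorafenib. Chac1, which degrades glutathione, rose 11.9-fold and 6.77-fold. Ddit4 had a log2 fold change of -0.86 at 48 hours (FDR = 3.21e-09, edgeR) and 1.07 at 7 days (FDR = 2.95e-10, edgeR). In the interaction 8 of the 14 were lower and 3 higher at 7 days, against 4353 and 3162 of the 20444 tested genes, or 3292 and 4125 with library totals.

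Among 21 other FGF ligands 15 were tested. At 48 hours 2 were higher and 5 lower, and at 7 days 4 were higher and 7 lower, with medians of -0.06 and 0.26. Of the 4 higher at 7 days, Fgf10 had 1 count in DMSO and 9 in sorafenib, and its call (FDR = 0.0398, edgeR) was lost in DESeq2 (0.0677) and without replicate 1, 2 or 3 of DMSO or 1, 2 or 4 of sorafenib at 7 days (0.0565 to 0.109). Fgf11 (FDR = 0.0245, edgeR) was not called without replicate 1 or 2 of DMSO or 3 of sorafenib at 7 days (0.0705 to 0.116). Without replicate 1 or 2 of DMSO at 7 days, 2 ligands were higher. Fgf1 fell from 81.0 ± 15.8 to 7.50 ± 1.53 normalized counts at 48 hours and from 97.8 ± 25.3 to 6.83 ± 1.20 at 7 days. Fgf9 had 126 counts in DMSO and 17 in sorafenib at 48 hours, and 255 and 11 at 7 days. Fgf8 fell from 424 to 76 counts at 48 hours, and from 820 to 1 at 7 days, a ratio of 0.00123 (counting interval 3.12e-05 to 0.00689). Fgf16 had 0 counts in DMSO and 126 in sorafenib at 48 hours, at least 54.8-fold higher against a floor of 3 counts over the group, and 6 and 102 at 7 days. Without the library with lowered chromosomes, the 48-hour log2 fold changes of Fgf1, Fgf8 and Fgf9 were -3.55, -2.06 and -2.54, in place of -3.46, -2.09 and -2.47. That library held 22.7 normalized counts of Fgf16, against 23.85 to 59.01 in the other replicates. Fgf13, an intracellular FGF homolog, went from 100.1 to 604.1 normalized counts at 48 hours and from 130.0 to 1149 at 7 days, on average, with a 48-hour log2 fold change of 2.60, or 2.69 without that library.

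Of 13 genes for FGF co-receptors, the decoy receptor and heparan sulfate carriers, 12 were tested and Kl, the gene of alpha-Klotho, had 4 counts in total. There were 8 higher and 3 lower at 48 hours, and 7 higher and 3 lower at 7 days (4 lower without the library with lowered chromosomes), with medians of 0.25 and 0.34. Sdc3, a syndecan, rose 3.46-fold and 5.19-fold. The glypican genes Gpc4 and Gpc6 rose with log2 fold changes of 1.90 and 1.45 at 48 hours, or 2.02 and 1.58 without that library, while Gpc2 fell by 0.96 at 48 hours and by 1.56 at 7 days on the log2 scale.

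Genes that relay signals just below an FGF receptor were 20, all tested. At 48 hours 11 were higher and 4 lower, or 12 and 4 without the library with lowered chromosomes, and at 7 days 10 were higher and 4 lower, or 11 and 5. The medians were 0.20 and 0.12. Braf, a kinase that sorafenib binds, had log2 fold changes of 1.01 and 0.25, and Map2k1, which encodes MEK1, 0.42 and 0.78. Ptpn11, the gene of SHP2, had 0.69 and 0.36, and Sos1 had 0.67 at 48 hours (0.81 without that library) and 0.30 at 7 days.

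Feedback inhibitors and targets of FGF receptor signalling were 17, all tested. At 48 hours 10 were higher and 5 lower, and at 7 days 9 were higher and 7 lower, with medians of 0.14 and 0.17. Dusp4, a phosphatase of nuclear MAP kinases, rose 6.55-fold at 48 hours and 3.13-fold at 7 days. Between the times its level went from 346.9 ± 23.8 to 1373 ± 105 normalized counts in DMSO and from 2297 ± 233 to 4295 ± 216 in sorafenib. Dusp6, an ERK phosphatase, rose 3.38-fold and 1.70-fold, Etv4, an ETS factor, 3.60-fold and 1.73-fold, and Ccnd1, the gene of cyclin D1, 2.66-fold and 4.66-fold. Egr1 and Fos were lower at both times, with log2 fold changes of -0.84 (-0.69 without the library with lowered chromosomes) and -1.38 for Egr1. In the interaction 10 members were lower and 4 higher, beside 4353 and 3162 over all tested genes, or 3292 and 4125 with library totals.

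On the side of GDF15, its receptor gene Gfral had 0 counts in each of the 16 libraries. Ret, which encodes the signalling partner, held 16 counts over DMSO and 10 over sorafenib at 48 hours, and 3, 6, 7 and 5 counts in DMSO against 27, 51, 26 and 26 in sorafenib at 7 days. Its log2 fold change was 2.61 (SE 0.34) at 7 days (FDR = 1.28e-06, edgeR) and -0.29 at 48 hours (FDR = 0.714, edgeR), and the interaction was 2.90 (FDR = 0.00242, edgeR). Of the 5 tested genes of this list, Ret, Gfra1 and Gfra2 were higher and Gfra4 lower at 7 days, with a median of 2.13, and at 48 hours Gfra3 was lower, with a median of 0.04. Gfra1, a receptor of GDNF, went from 25.6 ± 5.57 to 134.9 ± 6.65 normalized counts at 7 days, and Gfra2 from 32.6 ± 12.0 to 140.1 ± 5.35. Gfra3 had 9 counts in DMSO and 0 in sorafenib at 48 hours, at least 2.30-fold lower against 3 counts over the group. The call of Gfra3 (FDR = 0.0271, edgeR) was lost without replicate 3 of sorafenib (0.0553) and in DESeq2 (0.101).

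Of 10 other growth differentiation factors 5 were tested, with 1 higher and 2 lower at 48 hours (2 higher without replicate 4 of DMSO at 48 hours) and 1 higher and 3 lower at 7 days, and medians of -0.13 and -0.21. Gdf10 fell from 549 ± 29.0 to 120.1 ± 6.94 normalized counts at 48 hours and from 163.1 ± 21.9 to 13.6 ± 2.71 at 7 days. Gdf2, the gene of BMP9, had log2 fold changes of -0.89 and -2.23, or -0.68 at 48 hours without the library with lowered chromosomes. Gdf11 was higher at 48 hours (0.33, FDR = 0.000639, edgeR) and Gdf9 at 7 days (1.04, FDR = 0.0166, edgeR). The 48-hour call of Gdf2 was lost without replicate 1 (FDR = 0.0892) or 4 (0.0612) of DMSO or 3 of sorafenib (0.0636), and that of Gdf9 without replicate 2 of DMSO (0.051) or 3 of sorafenib (0.0664) at 7 days, in edgeR. Gdf6, lower at 7 days (FDR = 0.0486, edgeR), was not called in DESeq2 (0.0598), nor without replicate 1 or 2 of DMSO at 48 hours, 1 or 4 of DMSO at 7 days or 1, 3 or 4 of sorafenib at 7 days (0.0505 to 0.208).

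Proteases that may process or inactivate either hormone or its receptor were 7, with medians of 0.07 and -0.37. At each time 3 were higher and 3 lower, or 4 lower at 7 days without the library with lowered chromosomes. Fap, the gene of fibroblast activation protein, had 167 counts in DMSO and 0 in sorafenib at 48 hours, at least 42.7-fold lower against 3 counts over the group. At 7 days it had 11 and 2 counts, a ratio of 0.184 (counting interval 0.0198 to 0.843), and was not called. Dpp4, the gene of a dipeptidyl peptidase, fell by 0.82 and 4.28 on the log2 scale. Pcsk6, a proprotein convertase, rose 2.56-fold and 1.69-fold, and Pcsk5 fell by 0.65 (0.55 without that library) and 1.00. Furin had log2 fold changes of 0.07 (FDR = 0.109) and 0.17 (FDR = 0.000549) in edgeR.

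Among 15 other secreted factors of the liver 12 were tested, with 3 higher and 4 lower at 48 hours (4 and 4 without the library with lowered chromosomes) and 5 higher and 2 lower at 7 days, and medians of -0.46 and 0.62. Angptl6, an angiopoietin-like factor, went from 78.2 ± 4.74 to 915.6 ± 43.0 normalized counts at 48 hours and from 41.6 ± 6.19 to 828.6 ± 42.5 at 7 days. Fst, the gene of the activin antagonist follistatin, fell by 1.35 and 1.92 on the log2 scale. Selenop fell by 0.60 (0.41 without that library) and 1.95, and Rbp4 fell by 2.18 (2.12 without that library) at 48 hours. At 7 days Rbp4 was higher by 0.34 (FDR = 0.0378, edgeR), which was not called in DESeq2 (0.0522) or without replicate 2, 3 or 4 of DMSO or 1, 2 or 3 of sorafenib at 7 days (0.054 to 0.0949). Inhbe, another hepatokine gene, had 7 counts in total and was not tested.

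**Figure D4:**
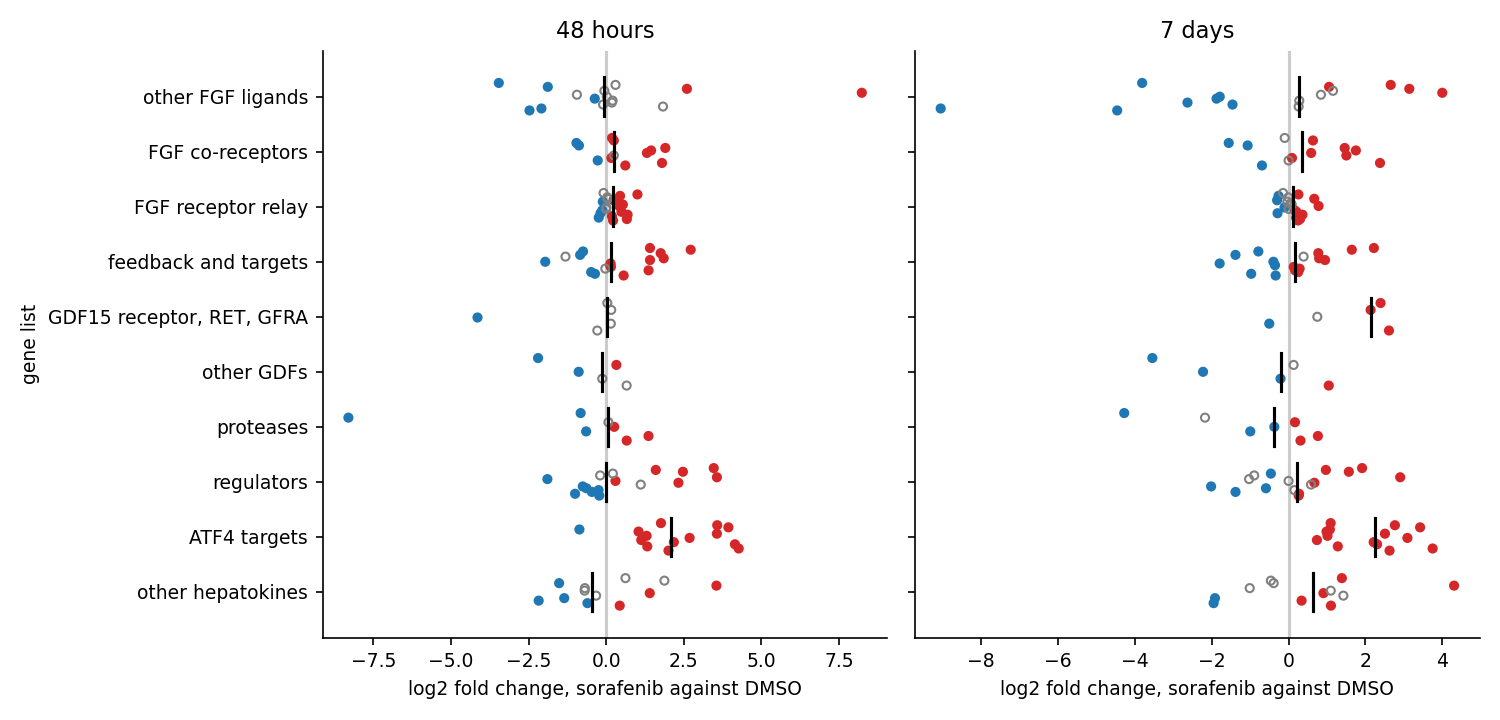
Log2 fold change of sorafenib against DMSO (horizontal axes) of the tested members of 10 gene lists at 48 hours (left) and 7 days (right); filled points were called higher (red) or lower (blue) at an FDR under 0.05, open points were not, and black bars are medians. ATF4 targets have medians of 2.09 and 2.26; at 48 hours Fgf16, Fap and Gfra3 have a group at 0 counts, so that their place depends on the prior count.

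Among the 5 genes whose pattern was most like that of Fgf21 over the 16 libraries, by Pearson correlation of log2 CPM among 10646 genes with a mean of 100 or more normalized counts, were Cdk14, Col11a1, Desi2 and Lama5, each at 0.97, with Spearman correlations of 0.871, 0.906, 0.929 and 0.850. Col11a1, a fibrillar collagen gene, went from 2153 ± 105 to 16950 ± 506 normalized counts at 48 hours and from 2390 ± 122 to 4277 ± 158 at 7 days. Lama5, a laminin gene, went from 19940 ± 351 to 39440 ± 1780 and from 21620 ± 297 to 26740 ± 534. The genes most like Gdf15 were Them4, Slc16a10, Mapk4, Ell2 and Cntnap3, each at 0.97, with Spearman correlations of 0.905, 0.883, 0.952, 0.943 and 0.904. Ell2, an elongation factor gene, went from 212.8 ± 13.2 to 538.0 ± 18.0 at 48 hours and from 218.2 ± 17.5 to 630.1 ± 14.4 at 7 days. The libraries fall into 4 groups and share depth and treatment within them, so these values describe likeness between group levels.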

How the data were processed

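The authors prepared libraries with a stranded Illumina mRNA kit and, per the submitters' processing notes, aligned reads to GRCm39 with STAR 2.7.1a and counted them with featureCounts 2.0.6. The deposited values are raw counts per gene. The strand setting and annotation are not given in the sources used here. Tests across genes used edgeR 4.0.16 in R 4.3.3 (quasi-likelihood, TMM, 1 model of 4 groups, no block) on the 20444 genes with 10 or more counts in total, at a Benjamini-Hochberg FDR under 0.05; the steps were checked on simulated data. Normalized counts are counts over the TMM-scaled library total, relative to the geometric mean of the 16 libraries. For receptor genes, libraries of both groups were permuted exactly (two-sided, scipy 1.17.1). Counting intervals are exact binomial intervals on summed counts at 95%. Exon lengths, positions and overlaps came from GENCODE M39, and promoters from RefSeq (GRCm38.p6). Replicates differed by more than counting error, with a chi-square per gene of 1.49 to 55.0 over pairs.

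Members and lists were chosen with earlier results of these data known. Values were printed for the 7 genes, for up to 4 called members of each list with the largest mean absolute log2 fold change over both drug comparisons, and for the 5 genes most like Fgf21 and Gdf15, of which 1 is not reported here; Trp53, Atf4, Tfeb, Ddit4, Egr1, Fos, Fgf10, Fgf11, Fgf13, Gdf6, Gfra4, Il17rd, Etv5, Furin, Rxra, Ppargc1a, Ppara, Creb3l3, the marker genes with values, the genes that set replicates apart and the overlapping genes were named beyond this after their values were seen. Alternatives were DESeq2 1.42.0, DESeq2 size factors, library totals, scaling on chromosomes 1 to 13, 2 other count filters, single time points, a replicate block, each library left out, an added log2 threshold of 1, transcript length and Spearman correlation.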

Additional observations from a re-analysis of the deposited data

Results flagged for a closer look

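In 3 of 28 groups of 4 libraries 1 library lay far from the others, judged by its gap to the nearest against the range. Chance gives about 1 in 20 groups for continuous values, a rate that does not hold for low tied counts such as those of Gdf15 and Fgfr4. Fgf21 in sorafenib at 7 days was lowest in replicate 1, at 20.2 normalized counts. Gdf15 in DMSO at 48 hours was highest in replicate 3, at 2.04 normalized counts, which stands for 2 counts. Fgfr4 in DMSO at 7 days was highest in replicate 1, at 9.73 normalized counts, which stands for 9 counts, and without it the 7-day call of Fgfr4 was lost (FDR = 0.108, edgeR).

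The effect of sorafenib differed between 48 hours and 7 days for 3 receptor genes, by the interaction in edgeR. The difference on the log2 scale was 0.30 for Fgfr1 (FDR = 8.7e-05), -1.18 for Fgfr2 (FDR = 2.36e-12) and -1.20 for Fgfr3 (FDR = 2.11e-07). The level in DMSO also moved between the times. It rose for Fgfr2 and Fgfr3 and fell for Fgfr1, by 0.45 on the log2 scale.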

How the results depend on the processing

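Of 2306 values recomputed under the alternatives, 2147 kept their direction, side of the threshold or size, 100 moved, 43 were no longer called and 16 changed sign. With an absolute log2 fold change of 1 or more added to the FDR, 3690 genes were called at 48 hours, 4202 at 7 days, 2242 between the DMSO groups and 1965 in the interaction. By construction this threshold ends the calls of Fgfr1 (0.51, 0.80, -0.45 and 0.30 in these 4 comparisons), Fgfr2 (0.11 at 48 hours and 0.93 between DMSO groups), Fgfr3 (0.71, -0.49 and 0.93 in the first 3) and Fgfr4 (-0.98 and -0.96). Over the 10 lists it left 34 members higher and 13 lower at 48 hours, 32 and 18 at 7 days, and 11 and 19 in the interaction.

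By log2 fold change, given in brackets, the small difference of Fgfr2 at 48 hours was not called with DESeq2 size factors (0.091), library totals (0.036), scaling on chromosomes 1 to 13 (0.077), 10 or more counts in every library (0.067), DESeq2 (0.091), or the 8 libraries of the time point (0.082), and ran from 0.064 to 0.11 with 1 library left out. That of Fgfr4 was not called with 1 or more counts in any library (-0.94 at both times), in DESeq2 (-1.02 and -0.99) or, at 7 days, in the 8 libraries (-0.97). With 1 library left out Fgfr4 ran from -1.15 to -0.88 at 48 hours, from -1.14 to -0.72 at 7 days, from -0.25 to 0.034 between the DMSO groups and from -0.16 to 0.26 in the interaction. Klb, which was not called, ran from -0.35 to 0.68 at 48 hours, from -0.22 to 0.25 at 7 days and from -0.71 to 0.31 in the interaction. Gdf15 ran from 3.99 to 4.43 and from 3.24 to 5.32. Fgf21 ran from 3.96 to 4.50 and from 1.08 to 1.57. Apart from the filters and left-out libraries, the cause was not tested.

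Replicate numbers did not pair the libraries at 48 hours. Over 10646 genes, deviations of same-numbered libraries correlated there at -0.0511 to 0.0183, with a mean of -0.0074 against 0.0024 for other numbers. At 7 days same-numbered libraries correlated at -0.0043 to 0.1317, with a mean of 0.0752 against -0.0242, a weak likeness by number. With a replicate block, 10644 genes were called at 48 hours, 11027 at 7 days and 6987 in the interaction. The block was set within each time with replicate 1 as its base. Across times it therefore compared fitted levels of replicate 1 only. Its 6421 calls between the DMSO groups are thus not a blocked form of the same difference. Under the block the log2 fold changes of Fgfr2 at 48 hours (0.11) and Fgfr4 at 48 hours (-1.003) and 7 days (-0.97) were not called. The value of Fgfr4 between the DMSO groups under the block, 0.23, likewise compares fitted levels of replicate 1. Other calls lost under the block were Il17rd (FDR = 0.0571) and Gfra3 (0.0873) at 48 hours, Fgf10 (0.103), Gdf6 (0.0646) and Rbp4 (0.0553) at 7 days, and Etv5 (0.0574) and Fap (0.0657) in the interaction.

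The filter of 10 counts in every library gives no value for Fgf21, Gdf15, Klb and Fgfr4, and the 8 libraries of a time point none across times. By Spearman correlation 0 of the 5 genes most like Fgf21 and 2 of those most like Gdf15 were shared. Few counts limit Gdf15, Klb and Fgfr4.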
